A study of Mus musculus with 4 samples.

Results

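Cranial sutures are the fibrous joints between the flat bones of the skull, and bone is added at the osteogenic fronts that border them. In the skull vault, the parietal bones meet each other along the midline at the sagittal suture (SAG), and each meets the frontal bone in front of it at the coronal suture (COR). Both stay patent in the mouse, whereas the posterior frontal suture (PF) closes through cartilage in early life. CD51+;CD200+ skeletal stem/progenitor cells from COR and SAG were compared here, with 1 RNA-seq library from each suture. Genes were matched by symbol and kept where FPKM was 1 or more in COR, in SAG or in both, and 12716 of the 23946 listed symbols were compared. FPKM values are fragments scaled for transcript length and for the size of the library, so levels of different genes are on a scale per length. Differences are given as the log2 ratio of COR to SAG after 1 was added to each FPKM, a scale that understates the change of low genes, and a gene was called higher or lower at 3-fold or more on that scale.

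The cells came from wild-type CD-1 mice at postnatal day 3, an age at which all sutures in the series were patent. Each dissected suture was taken with the bone edges beside it and with the membranes that cover it on both faces, periosteum and dura mater, so the tissue that was digested was not mesenchyme alone. Cells were sorted by FACS for CD51 and CD200 and against CD105, 6C3, both Thy1 alleles, Tie2, Ter119 and CD45. The series holds 4 bulk libraries, and those of PF and of the tibial growth plate (GP) are given as context. Cells of many mice were sorted, and 1 library per tissue leaves no replicate error. No test was therefore made and no p-value is given, so a difference between sutures and a difference between libraries cannot be told apart.

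Skeletal stem/progenitor cells of the suture give rise to osteoblasts, which lay down bone matrix, and can also form cartilage and stroma. The osteoblast programme is set by the transcription factors RUNX2 and SP7 (osterix), and the cartilage programme by SOX9. Wnt, BMP, FGF, TGF-beta and hedgehog signals from the fronts, the mesenchyme and the dura regulate the balance between growth and differentiation in the suture.

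The genes of the sorting antigens were listed first as a check of the sort. *Itgav*, which encodes CD51, was at 14.99 FPKM in COR, 6.20 in SAG, 12.7 in PF and 13.5 in GP. *Cd200* was at 62.6 FPKM in COR, 48.1 in SAG, 23.5 in PF and 57.1 in GP. *Ptprc* (CD45), *Tek* (Tie2) and *Thy1* were below 1 FPKM in COR and in SAG. *Enpep* (6C3) was at 3.74 FPKM in COR and 2.74 in SAG and *Eng* (CD105) at 1.07 FPKM in COR and 0.760 in SAG. Transcripts of both antigens used for positive selection were present in both libraries, and the log2 ratios of COR to SAG were 1.15 for *Itgav* and 0.38 for *Cd200*. Skeletal and cranial factors were also listed in both libraries, with *Prrx1* at 43.5 FPKM in COR and 31.0 in SAG and *Msx1* at 94.4 FPKM in COR and 175 in SAG. No gene of the HOX clusters, which are silent in most of the skull vault and active in the limb, reached 1 FPKM in COR or SAG, and their summed FPKM was 0.772 in COR, 0.673 in SAG and 187 in GP.

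Most genes were listed at like levels in COR and SAG. The median log2 ratio was -0.02, and 10167 of 12716 genes, or 80.0%, lay within 2-fold. At 3-fold or more, 1173 genes differed, which is 9.22% of the genes compared. Of these, 395 (3.11%) were higher in COR and 778 (6.12%) were lower in COR. These shares are the background for every list count given below. The higher genes were concentrated among strongly expressed ones. Where the higher library listed 1 to under 5 FPKM, 1.22% of 3690 were higher in COR and 5.39% were lower. Among the 1116 genes at 100 FPKM or more, 8.51% were higher in COR and 6.63% were lower. Close to the threshold, within 0.1 on the log2 scale, 53 genes were just past it and 64 just short of it on the COR side, and 76 were just past and 83 just short on the SAG side.

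**Figure D1:**
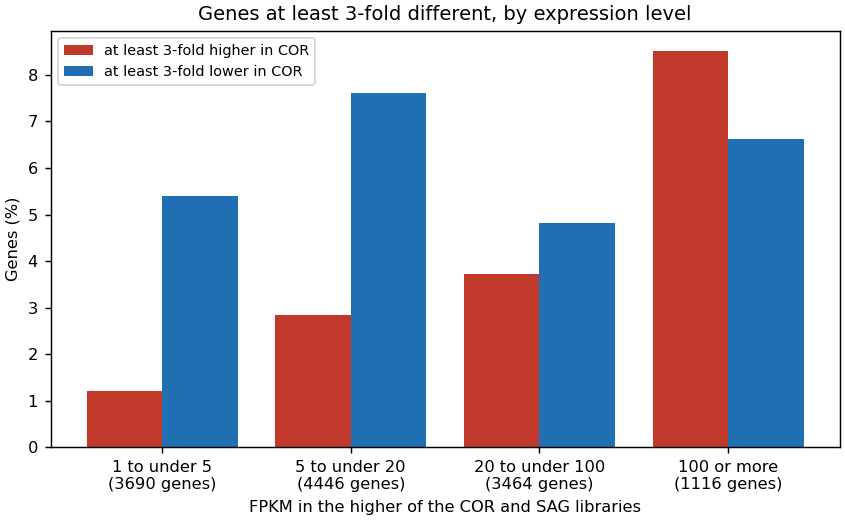
Percent of genes at least 3-fold higher (red) or lower (blue) in COR than in SAG, by the FPKM of the higher of both libraries, with the number of genes under each pair of bars. The share higher in COR was 1.22% in the lowest class and 8.51% in the highest, while the share lower in COR was between 4.82% and 7.60%.

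PF and GP served as a reference for where COR or SAG stood alone. Of the 395 genes higher in COR, COR was the highest of the 4 libraries in 282 and SAG the lowest in 301. Of the 778 genes lower in COR, SAG was the highest of the 4 in 700, and COR was the lowest in 330. Most genes lower in COR than in SAG were thus listed at their highest level in SAG among the tissues sampled. These genes were chosen for SAG above COR, which by itself favours SAG as the highest library and COR as the lowest. The same holds in reverse for the genes higher in COR. List counts of the highest or lowest library given below carry this limit, and the counts over all genes are their background.

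The libraries themselves differed in ways that touch these ratios. Genes at FPKM of 1 or more numbered 11402 in COR and 12263 in SAG, and summed FPKM was 490636 in COR and 447174 in SAG. The smallest step between low values corresponded to about 33.7 fragments per FPKM and kilobase in COR and 38.6 in SAG, against 17.2 in PF, an estimate that takes FPKM as proportional to a library's fragments. The ratio also moved with base composition, from a median log2 of -0.22 in the tenth of genes with the lowest GC content to 0.23 in the tenth with the highest. These parts of the result were not tested. *Gapdh* was at 335 FPKM in COR and 407 in SAG, and *Actb* at 1641 FPKM in COR and 866 in SAG.

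*Sparc*, *Col1a1*, *Col1a2* and *Col3a1*, which encode osteonectin and the chains of type I and type III collagen, are listed at 0 in COR and were left out of every count. In SAG they were at 3723, 606, 1336 and 533 FPKM. *Col1a2* is also listed at 0 in GP. These are abundant genes of every connective tissue, so a listed 0 can be a failed estimate and no ratio is given for them. Apart from these left-out genes, 36 genes were listed at 0 in COR with 5 FPKM or more in SAG, of which 21 were short RNA genes. In the other direction 19 genes, all of them short RNAs, were listed at 0 in SAG with 5 or more in COR.

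**Figure D2:**
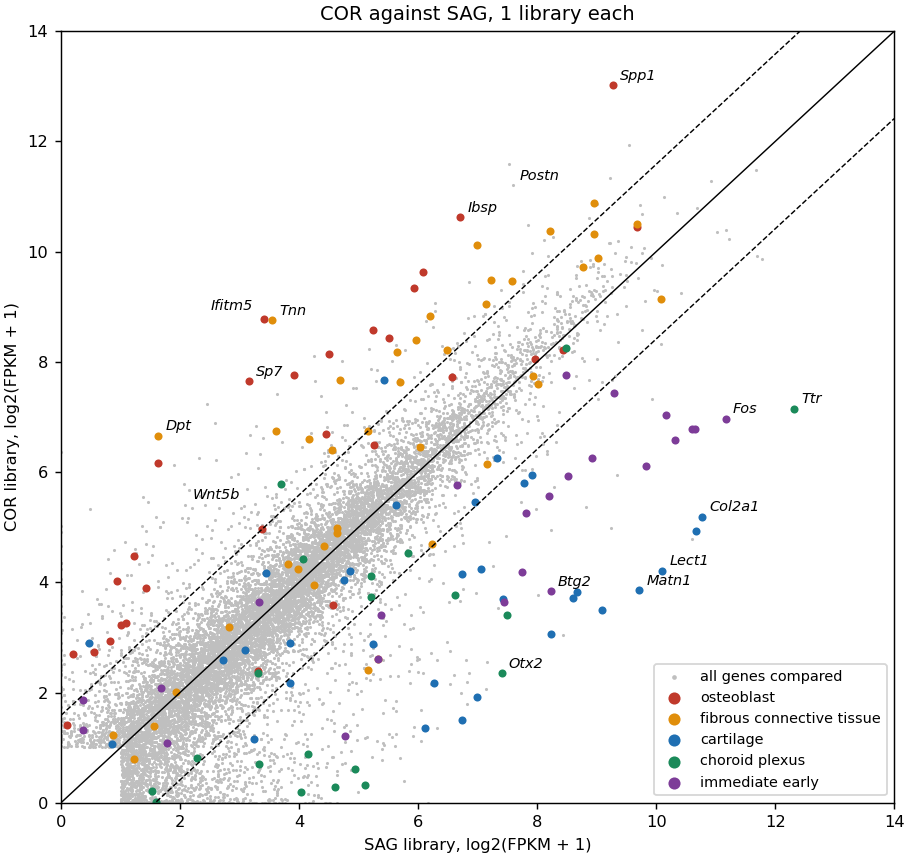
Each of the 12716 genes compared is a point at its log2(FPKM + 1) in SAG (horizontal) and COR (vertical), with 5 gene lists in colour, a solid line at equal values and dashed lines at 3-fold. Osteoblast genes such as *Spp1*, *Ibsp* and *Sp7* lie above the upper dashed line, and cartilage, choroid plexus and immediate early genes such as *Col2a1*, *Ttr* and *Fos* lie below the lower one.

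Transcripts of the osteoblast lineage were higher in COR. Of 29 osteoblast genes compared, 21 were at least 3-fold higher in COR and 0 were at least 3-fold lower, against 3.11% and 6.12% of all genes. The median log2 ratio of the list was 2.47, against -0.02 over all genes, and its summed FPKM was 15763 in COR, 2597 in SAG, 4808 in PF and 10772 in GP. In bulk RNA, more cells of a type and more RNA per cell cannot be told apart. Of the 21 genes, COR was the highest of the 4 libraries in 17, against 282 of the 395 genes higher in COR.

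The regulators of the lineage were among them. *Sp7*, the zinc finger factor required for osteoblast formation, was at 199.9 FPKM in COR, 7.93 in SAG, 33.8 in PF and 47.3 in GP, a ratio of 25.2 in FPKM between COR and SAG. *Runx2*, the factor upstream of it, was at 30.4 FPKM in COR, 9.41 in SAG, 18.9 in PF and 18.1 in GP, and its log2 ratio of 1.59 lay at the threshold. *Dlx5*, a homeobox activator of osteoblast genes, was at 102 FPKM in COR and 20.9 in SAG, and its relative *Dlx3* was at 21.2 FPKM in COR and 1.35 in SAG. *Atf4*, which serves amino acid supply in many cells as well as osteoblast maturation, was at 263 FPKM in COR and 248 in SAG. The factors specific to the lineage were thus further apart between both sutures than the widely expressed *Atf4*.

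The largest difference on the osteoblast side was in *Ifitm5* (mm9 chromosome 7, 148134862 to 148136138, minus strand), a membrane protein of mineralizing osteoblasts. It was at 439.8 FPKM in COR, 9.68 in SAG, 141 in PF and 60.4 in GP, a ratio of 45.4 between COR and SAG and a log2 ratio of 5.37. *Smpd3*, a sphingomyelinase needed for normal mineralization, was at 71.0 FPKM in COR, 2.09 in SAG, 16.4 in PF and 48.0 in GP. Outside the list, *Panx3*, a channel protein of osteoblasts and prehypertrophic chondrocytes, was at 149.7 FPKM in COR, 4.46 in SAG, 17.1 in PF and 104 in GP. All 3 were lowest in SAG.

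Structural and secreted products of bone cells followed the same direction. *Spp1* (osteopontin), a phosphoprotein of bone matrix, was at 8324 FPKM in COR, 617 in SAG, 1649 in PF and 6882 in GP, the highest level in COR of any osteoblast gene on the list. *Ibsp* (bone sialoprotein) was at 1575 FPKM in COR, 104 in SAG, 123 in PF and 761 in GP. *Alpl*, the alkaline phosphatase that releases phosphate for mineral, was at 645 FPKM in COR, 59.7 in SAG, 461 in PF and 258 in GP. *Bglap* and *Bglap2*, which encode osteocalcin, were at 790.1 FPKM in COR and 67.1 in SAG and at 216 FPKM in COR and 14.1 in SAG, with the reserve that these genes are near-identical copies and reads may be split between them. SAG was the lowest of the 4 libraries in each of these, and for *Ibsp* the SAG and PF libraries lay close together.

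Genes of the late osteoblast and the osteocyte were mostly listed at lower levels, again with COR above SAG. *Dmp1*, a matrix protein of young osteocytes, was at 281 FPKM in COR, 21.8 in SAG, 19.7 in PF and 55.0 in GP. *Mepe*, another matrix phosphoprotein of osteocytes, was at 5.52 FPKM in COR and 0.146 in SAG, and *Phex*, the endopeptidase of the same cells, was at 5.66 FPKM in COR and 0.462 in SAG. *Sost*, the Wnt inhibitor of mature osteocytes, was at 1.64 FPKM in COR and 0.0668 in SAG and did not reach 3-fold on this scale. *Pth1r*, the receptor for parathyroid hormone, was at 380.2 FPKM in COR, 37.0 in SAG, 106 in PF and 241 in GP. *Tnfsf11* (RANKL), which osteoblast lineage cells use to call up osteoclasts, was at 8.56 FPKM in COR and 1.14 in SAG, whereas its decoy receptor *Tnfrsf11b* was at 4.24 FPKM in COR and 8.94 in SAG.

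The 8 osteoblast genes that stayed under 3-fold were *Sost*, *Omd*, *Cdh11*, *Cthrc1*, *Atf4*, *Mmp13*, *Tnfrsf11b* and *Pdpn*. *Cdh11*, a cadherin of mesenchymal cells at large, was at 211 FPKM in COR and 94.0 in SAG, and *Mmp13*, a collagenase of osteoblasts and hypertrophic chondrocytes, was at 298 FPKM in COR and 346 in SAG. *Pdpn*, which marks young osteocytes but also meningeal and lymphatic cells, was at 11.1 FPKM in COR and 22.6 in SAG, a log2 ratio of -0.97.

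RUNX2 binds the core TGTGGT, and this letter string was searched on both strands of the 250 bases upstream of each start site in the RefSeq promoter table (build GRCm38.p6, not the mm9 build of the expression files). It was present in 15.9% of 27025 genes with a promoter window. Of the 21 osteoblast genes higher in COR, 13 had a window and 5 of these held it, namely *Bglap*, *Dmp1*, *Mepe*, *Runx2* and *Spp1*. In other lists it was in 3 of 13 cartilage genes lower in COR with a window, 1 of 8 choroid plexus, 1 of 7 pineal and 0 of 14 immediate early genes. A match in letters describes the window and is no evidence of binding. The windows of *Spp1* (chr5:104434936-104435035, plus strand) and *Bglap* (chr3:88384546-88384645, minus strand) are printed because these were among the most abundant bone matrix transcripts higher in COR. Each is 100 bases, 5′ to 3′ on the strand of the gene, with the match in capitals, where it reads ACCACA because it lies on the opposite strand.
Spp1: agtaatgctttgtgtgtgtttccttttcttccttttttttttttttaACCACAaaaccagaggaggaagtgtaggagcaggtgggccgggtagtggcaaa
Bglap: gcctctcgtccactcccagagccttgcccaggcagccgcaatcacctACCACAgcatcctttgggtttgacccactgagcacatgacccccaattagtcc

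Fibrous connective tissue genes that differed were also mostly higher in COR. Of 41 compared, 17 were at least 3-fold higher in COR and 2 were lower, against 3.11% and 6.12% of all genes. The median log2 ratio of the list was 0.86. *Tnn* (mm9 chromosome 1, 162015165 to 162083711, minus strand) encodes tenascin-W, a matrix protein found at sites of bone formation and in periosteum, and was at 431 FPKM in COR, 10.7 in SAG, 15.7 in PF and 62.7 in GP. *Dpt*, which encodes dermatopontin, a small protein that binds decorin and collagen fibrils, was at 100.1 FPKM in COR, 2.11 in SAG, 1.05 in PF and 4.01 in GP. *Dpt* was thus near 1 to 4 FPKM in the other 3 libraries, and COR stood alone.

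*Postn* (periostin), a matrix protein of periosteum and suture mesenchyme, was at 2358 FPKM in COR, 191 in SAG, 166 in PF and 1284 in GP. *Tnc* (tenascin-C) was at 204 FPKM in COR and 24.7 in SAG, and *Aspn* (asporin), a small leucine-rich proteoglycan, at 1115 FPKM in COR and 126 in SAG. *Lum* (lumican), of the same family, was at 1898 FPKM in COR and 497 in SAG. The chains of type V collagen, which nucleate type I fibrils, were *Col5a1* at 457 FPKM in COR and 72.6 in SAG and *Col5a2* at 337 FPKM in COR and 61.2 in SAG. Type VI collagen showed the same order, with *Col6a1* at 704 FPKM in COR and 189 in SAG, *Col6a2* at 715 FPKM in COR and 149 in SAG and *Col6a3* at 96.3 FPKM in COR and 16.9 in SAG. *Lox*, the enzyme that crosslinks collagen and elastin, was at 288 FPKM in COR and 49.1 in SAG.

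Tendon genes did not move as a group. *Scx*, the transcription factor of tendon progenitors, was at 107 FPKM in COR and 11.3 in SAG, a log2 ratio of 3.14. *Tnmd*, a membrane protein of mature tendon cells, was at 69.6 FPKM in COR and 142 in SAG, a log2 ratio of -1.02, and *Fmod* (fibromodulin) was at 565 FPKM in COR and 1078 in SAG. *Mkx*, another tendon factor, was at 19.2 FPKM in COR and 13.1 in SAG. The 2 genes at least 3-fold lower in COR were *Pcolce2*, an enhancer of procollagen processing, at 4.30 FPKM in COR and 34.8 in SAG, and *Egr2*, which is also an immediate early gene, at 5.09 FPKM in COR and 39.2 in SAG. The elastic fibre genes *Fbn1* and *Fbln5* were at 8.14 FPKM in COR and 6.11 in SAG and at 17.9 FPKM in COR and 14.7 in SAG, while *Eln* (elastin) was at 295 FPKM in COR and 88.2 in SAG.

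Contractile genes were another group higher in COR than in SAG. Of 11 smooth muscle and pericyte genes compared, 7 were at least 3-fold higher in COR and 0 lower, against 3.11% and 6.12% of all genes. Once the ratios were corrected for GC content 5 were higher, without *Myh11* and *Myl9*. *Acta2* (smooth muscle actin) was at 232 FPKM in COR, 38.9 in SAG, 530.4 in PF and 400.2 in GP, *Tagln* (transgelin) at 65.4 FPKM in COR, 15.9 in SAG, 221 in PF and 139 in GP, and *Actg2* at 31.4 FPKM in COR, 1.56 in SAG, 90.3 in PF and 65.6 in GP. PF was higher than COR in all 3. SAG was the lowest of the 4 libraries in all 7 genes, against 301 of the 395 genes higher in COR. *Rgs5*, a marker of pericytes, was at 0.432 FPKM in COR and 0.614 in SAG, and *Notch3*, a receptor of mural cells, was at 1.02 FPKM in COR and 0.764 in SAG. Of 8 genes of caveolae, the membrane pits that many stromal cells carry, 2 were higher in COR and 1 lower, against 3.11% and 6.12% of all genes. The higher ones were *Cav1* at 79.4 FPKM in COR and 9.12 in SAG and *Ptrf* at 81.6 FPKM in COR and 23.3 in SAG, and *Sdpr*, also a caveolar coat gene, was lower, at 3.96 FPKM in COR and 96.1 in SAG.

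**Figure D3:**
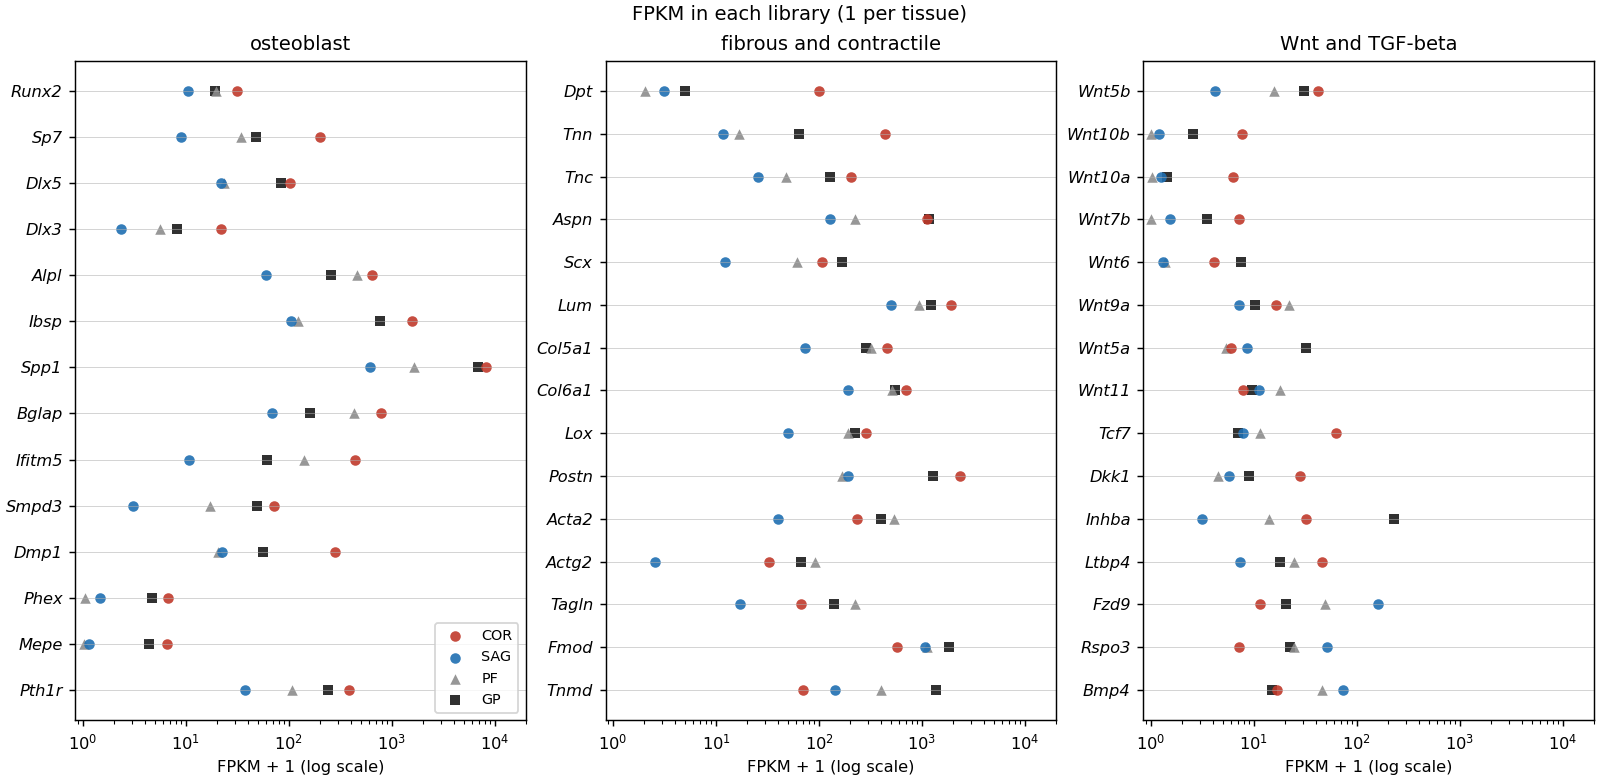
FPKM + 1 on a log axis in the COR, SAG, PF and GP libraries for osteoblast genes (left), fibrous and contractile genes (centre) and Wnt and TGF-beta pathway genes (right), 1 point per library. The 14 osteoblast genes shown were all among those at least 3-fold higher in COR, so COR lies to the right of SAG by choice of genes. The list members higher in SAG, *Pdpn*, *Tnfrsf11b* and *Mmp13*, are not drawn. In the other panels *Fmod*, *Tnmd*, *Wnt5a*, *Wnt11*, *Fzd9*, *Rspo3* and *Bmp4* lie further right in SAG.

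Genes used to mark suture and skeletal stem cells differed between the sutures only in part. Of 18 compared, 4 were at least 3-fold higher in COR, namely *Postn*, *Acta2*, *Ly6a* and *Cd34*, and 0 were lower, against 3.11% and 6.12% of all genes. *Gli1*, a hedgehog target that marks suture mesenchymal cells, was at 3.99 FPKM in COR, 0.668 in SAG, 7.86 in PF and 2.06 in GP and just short of 3-fold. *Axin2*, the Wnt feedback gene that marks suture stem cells, was at 0.695 FPKM in COR and 0.977 in SAG and below the floor for comparison. *Prrx1*, which marks craniofacial and limb mesenchyme, was at 43.5 FPKM in COR and 31.0 in SAG, and *Ctsk*, which marks periosteal stem cells as well as osteoclasts, was at 476 FPKM in COR and 229 in SAG. *Six2*, a factor of cranial mesenchyme, was at 96.5 FPKM in COR, 77.0 in SAG, 191 in PF and 2.94 in GP. *Cxcl12*, the chemokine of marrow stroma, was at 93.0 FPKM in COR, 209.9 in SAG, 773 in PF and 108 in GP, a log2 ratio of -1.17.

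Wnt ligands are secreted proteins that act on neighbouring cells through Frizzled receptors and LRP co-receptors. Of 19 ligand genes, 11 reached 1 FPKM in COR or SAG. At least 3-fold higher in COR were 5 of the 11, with 0 lower, against 3.11% and 6.12% of all genes. *Wnt5b* was at 41.5 FPKM in COR, 3.25 in SAG, 14.9 in PF and 29.8 in GP. *Wnt10b*, a ligand that favours bone over fat, was at 6.70 FPKM in COR, 0.203 in SAG, 0 in PF and 1.60 in GP, and *Wnt10a* was at 5.32 FPKM in COR, 0.253 in SAG, 0.0354 in PF and 0.439 in GP. *Wnt7b*, which is active in forming bone, was at 6.29 FPKM in COR, 0.545 in SAG, 0.0187 in PF and 2.54 in GP, and *Wnt6* was at 3.12 FPKM in COR, 0.326 in SAG, 0.376 in PF and 6.51 in GP. Apart from *Wnt5b*, these ligands were below 1 FPKM in SAG, and with 1 FPKM or more required in both libraries 5 ligands were left, of which *Wnt5b* alone was past 3-fold.

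The other 6 ligands were under 3-fold on this scale. *Wnt9a* was at 15.4 FPKM in COR and 6.23 in SAG. *Wnt5a*, which signals mainly without beta-catenin, was at 5.001 FPKM in COR and 7.60 in SAG, and *Wnt11* at 6.84 FPKM in COR and 10.3 in SAG. *Wnt3* and *Wnt8b* were near 0 in COR, at 0.00946 and 0.00903 FPKM, and at 1.45 and 1.02 FPKM in SAG.

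Receptors and secreted modulators of the pathway moved in both directions. Of 32 compared, 3 were at least 3-fold higher in COR and 4 lower, against 3.11% and 6.12% of all genes. The higher ones are all secreted inhibitors, with *Dkk1* at 27.0 FPKM in COR and 4.74 in SAG, *Wif1* at 203 FPKM in COR and 42.1 in SAG and *Sfrp4* at 72.8 FPKM in COR and 20.6 in SAG. The lower ones are receptors or agonists. *Fzd9*, a Frizzled receptor, was at 10.5 FPKM in COR, 161 in SAG, 48.2 in PF and 19.5 in GP, and *Fzd10* was at 0.478 FPKM in COR and 6.10 in SAG. *Rspo3* and *Rspo2*, R-spondins that raise Wnt receptor levels at the cell surface, were at 6.22 FPKM in COR and 50.3 in SAG and at 1.61 FPKM in COR and 7.72 in SAG. Members just short of 3-fold did not keep to this split of inhibitors and receptors. The inhibitor *Sfrp1* was at 5.23 FPKM in COR and 16.7 in SAG, and the receptor *Lgr6* at 4.45 FPKM in COR and 0.844 in SAG.

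Genes that Wnt signals induce in other tissues were mostly higher in COR where they differed. Of 16 compared, 6 were at least 3-fold higher and 1 was lower, against 3.11% and 6.12% of all genes. *Twist1* was among the 6 and fell short of 3-fold under scaling to the median ratio, quantile normalization and GC correction, which left 5. *Tcf7*, a transcription factor of the pathway, was at 61.8 FPKM in COR, 6.83 in SAG, 10.5 in PF and 6.06 in GP. *Ccnd1*, the G1 cyclin, was at 41.4 FPKM in COR, 4.37 in SAG, 17.3 in PF and 43.3 in GP, and *Cd44*, the hyaluronan receptor, was at 75.1 FPKM in COR, 4.001 in SAG, 14.97 in PF and 22.2 in GP. Other inputs also act on these 2 genes. *Tnfrsf19*, a receptor of the TNF family, was at 92.8 FPKM in COR and 12.1 in SAG. *Nkd1*, *Apcdd1* and *Znrf3*, which encode feedback inhibitors, were at 17.99 FPKM in COR and 19.2 in SAG, at 8.38 FPKM in COR and 9.53 in SAG and at 1.84 FPKM in COR and 1.79 in SAG. *Lef1* was at 1.88 FPKM in COR and 6.15 in SAG. *Sp5*, a Wnt target of embryonic and neural tissue, was lower in COR, at 0.103 FPKM in COR and 18.9 in SAG.

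Of 25 BMP and GDF genes compared, 1 was at least 3-fold higher in COR and 6 were lower, against 3.11% and 6.12% of all genes. The median log2 ratio of the list was close to that of all genes, but this depended on the filter. It was -0.64 with FPKM of 5 or more in either library and -0.23 with 1 or more in both, against 0.03 over all genes in each case. *Bmp8a* was the gene higher in COR, at 12.01 FPKM in COR and 0.517 in SAG. *Bmp4* was at 15.7 FPKM in COR, 73.5 in SAG, 45.0 in PF and 14.1 in GP, *Bmp7* at 5.34 FPKM in COR, 35.6 in SAG, 8.98 in PF and 4.63 in GP, and *Gdf5*, a ligand of joints, at 2.17 FPKM in COR, 48.2 in SAG, 0.290 in PF and 18.4 in GP. *Id1* and *Id3*, targets of BMP signalling that block differentiation factors, were at 115 FPKM in COR and 320.0 in SAG and at 606 FPKM in COR and 1373 in SAG, and their relative *Id4* was at 12.7 FPKM in COR, 257 in SAG, 9.92 in PF and 10.8 in GP. *Nog* (noggin), an antagonist of BMPs tied to suture patency, was at 14.6 FPKM in COR and 14.6 in SAG, and *Bmp2* was at 21.99 FPKM in COR and 36.1 in SAG.

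TGF-beta pathway genes that differed were higher in COR. Of 19 compared, 4 were at least 3-fold higher and 0 lower, against 3.11% and 6.12% of all genes. *Tgfb1* was at 30.2 FPKM in COR, 6.002 in SAG, 2.63 in PF and 8.92 in GP, while *Tgfb3*, whose product is tied to suture patency, was at 94.2 FPKM in COR and 61.5 in SAG and *Tgfb2* at 14.7 FPKM in COR and 38.4 in SAG. *Inhba*, the activin A subunit, was at 31.1 FPKM in COR, 2.15 in SAG, 13.1 in PF and 229 in GP, *Fstl3*, an activin antagonist, at 31.4 FPKM in COR and 4.46 in SAG, and *Ltbp4*, a binding protein for latent TGF-beta, at 45.5 FPKM in COR and 6.32 in SAG.

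Hedgehog genes had 3 of 15 at least 3-fold higher in COR and 0 lower, against 3.11% and 6.12% of all genes. *Ihh*, the ligand of growth plate and bone fronts, was at 6.48 FPKM in COR, 0.381 in SAG, 0.136 in PF and 44.0 in GP, and *Hhip*, a target that binds the ligand, was at 8.49 FPKM in COR, 0.271 in SAG, 2.51 in PF and 1.89 in GP. *Pth1r*, counted in this list for its loop with *Ihh*, was the third. *Ptch1*, the receptor and target, was at 2.18 FPKM in COR and 0.586 in SAG.

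Of 23 FGF genes compared, 0 were at least 3-fold higher in COR and 1, *Fgfr4*, was lower, at 0.499 FPKM in COR and 5.20 in SAG, a count near the 3.11% and 6.12% of all genes. Ligands at low levels stayed under 3-fold on the scale with 1 added, with *Fgf9* at 1.10 FPKM in COR and 0.0866 in SAG and *Fgf10* at 1.66 FPKM in COR and 0.242 in SAG. The receptors *Fgfr1*, *Fgfr2* and *Fgfr3*, whose human counterparts are mutated in craniosynostosis, were at 44.2 FPKM in COR and 24.0 in SAG, at 94.6 FPKM in COR and 48.8 in SAG and at 41.4 FPKM in COR and 48.6 in SAG. In the IGF list, 3 of 14 were at least 3-fold higher in COR and 1 lower, against 3.11% and 6.12% of all genes. The higher ones are all binding proteins, with *Igfbp3* at 134 FPKM in COR, 20.8 in SAG, 476 in PF and 724 in GP. SAG was the lowest of the 4 libraries in each of the 3, against 301 of the 395 genes higher in COR. *Irs2*, an adaptor of insulin and IGF receptors, was lower in COR, at 7.18 FPKM in COR and 34.5 in SAG. Of 15 Notch genes, 4 were lower in COR and 0 higher, against 6.12% and 3.11% of all genes. The atypical ligand *Dlk1* was at 6.57 FPKM in COR, 88.9 in SAG, 96.4 in PF and 145 in GP and the neural target *Hes5* at 0 FPKM in COR and 9.42 in SAG.

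Of 30 genes of human craniosynostosis compared, 2 were past 3-fold, against 9.22% of all genes, a share near that background. They were *Runx2* and *Twist1*, both close to the threshold, and *Zic1*, at 1.20 FPKM in COR and 5.37 in SAG, was just short of it on the other side. *Twist1*, whose loss leads to fusion of the coronal suture, was at 124 FPKM in COR, 40.4 in SAG, 42.1 in PF and 65.6 in GP, a log2 ratio of 1.60. *Msx2*, a homeobox gene of the suture, was at 22.1 FPKM in COR, 54.4 in SAG, 43.2 in PF and 2.13 in GP, and *En1*, which helps to place the coronal suture, was at 6.76 FPKM in COR, 1.96 in SAG, 0.966 in PF and 0.175 in GP. *Tcf12*, the partner of TWIST1, was at 26.4 FPKM in COR and 30.7 in SAG, and *Efnb1*, an ephrin of the coronal boundary, was at 42.6 FPKM in COR and 39.4 in SAG.

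Of 38 cranial patterning factors compared, 6 were at least 3-fold higher in COR and 1 lower, against 3.11% and 6.12% of all genes. With a pseudocount of 0.1 these counts were 9 and 5, and with 1 FPKM or more required in both libraries they were 3 and 0. *Tbx2*, a T-box factor, was at 16.9 FPKM in COR, 0.766 in SAG, 13.5 in PF and 28.0 in GP, and SAG was the lowest library. *Dlx3*, *Dlx5*, *Dlx6* and *Twist1* were also among the genes higher in COR, and these *Dlx* genes are in the osteoblast list as well. *Pax3*, a factor of neural crest and dorsal neural tube, was lower in COR, at 0.185 FPKM in COR, 11.5 in SAG, 0.0171 in PF and 0.161 in GP. *Alx1* was at 34.2 FPKM in COR and 14.2 in SAG and *Alx4* at 9.60 FPKM in COR and 13.3 in SAG.

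Proteases and their inhibitors had 7 of 35 at least 3-fold higher in COR and 1 lower, against 3.11% and 6.12% of all genes. *Mmp23* was at 258 FPKM in COR, 25.5 in SAG, 221 in PF and 121 in GP and *Timp1*, an inhibitor of metalloproteinases, at 696 FPKM in COR, 115 in SAG, 233 in PF and 587 in GP. *Adamts2* and *Adamts14*, which remove the amino propeptide of fibrillar collagens, were at 68.3 FPKM in COR and 17.4 in SAG and at 11.1 FPKM in COR and 1.07 in SAG. *Mmp14* and *Mmp2*, which act together on the cell surface, were at 705 FPKM in COR and 575 in SAG and at 857 FPKM in COR and 491 in SAG. *Mmp9* (gelatinase B), abundant in osteoclasts, was lower in COR, at 29.9 FPKM in COR, 301 in SAG, 10.2 in PF and 154 in GP. Of 13 osteoclast markers, 6 were compared, of which *Mmp9* was the 1 lower and *Itgb3* the 1 higher. *Acp5* was at 30.5 FPKM in COR and 14.3 in SAG and *Ckb* at 182 FPKM in COR and 394 in SAG, and *Dcstamp* and *Siglec15* were listed at 0 in COR and in SAG.

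Cartilage genes were lower in COR. Of 32 compared, 20 were at least 3-fold lower in COR and 2 higher, against 6.12% and 3.11% of all genes. The median log2 ratio was -2.22, and summed FPKM was 759.6 in COR, 8712 in SAG, 1003 in PF and 6491 in GP. COR and PF were thus low, and the SAG sum was above that of the growth plate. SAG was the highest of the 4 libraries in 13 of the 20 genes, a smaller share than the 700 of all 778 genes lower in COR.

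*Lect1* (mm9 chromosome 14, 80037497 to 80061977, minus strand), which encodes chondromodulin, an inhibitor of vessel growth in cartilage, had the largest ratio on the log2(FPKM + 1) scale of the genes named by rank. It was at 17.5 FPKM in COR, 1094 in SAG, 15.1 in PF and 219 in GP, a log2 ratio of -5.89 on that scale. *Matn1* (mm9 chromosome 4, 130500300 to 130511390, plus strand) encodes matrilin-1, a protein of cartilage matrix outside joints, and was at 13.5 FPKM in COR, 838 in SAG, 9.40 in PF and 151 in GP. *Col2a1* (mm9 chromosome 15, 97806033 to 97835155, minus strand), the chain of type II collagen, was at 35.4 FPKM in COR, 1749.8 in SAG, 31.4 in PF and 1731 in GP. SAG and GP were nearly alike for *Col2a1*, and COR and PF were nearly alike at a low level.

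The chains of type IX collagen, which coats type II fibrils, went the same way. *Col9a1* was at 13.1 FPKM in COR, 404 in SAG, 6.15 in PF and 113 in GP, *Col9a2* at 10.3 FPKM in COR, 541 in SAG, 45.8 in PF and 195 in GP and *Col9a3* at 29.4 FPKM in COR, 1627 in SAG, 34.2 in PF and 465 in GP. SAG exceeded GP in all 3. *Comp*, a pentameric protein of cartilage and tendon, was at 7.35 FPKM in COR, 299.9 in SAG, 12.3 in PF and 587 in GP, and *Matn3* was at 1.55 FPKM in COR, 68.2 in SAG, 3.81 in PF and 159 in GP, and for these GP was the highest library.

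*Sox9*, the factor that directs chondrocyte formation, was at 11.9 FPKM in COR, 171 in SAG, 21.3 in PF and 60.8 in GP, a log2 ratio of -3.74. Its partners were closer, with *Sox5* at 3.53 FPKM in COR and 13.3 in SAG and *Sox6* at 5.01 FPKM in COR and 5.60 in SAG. *Ucma*, a secreted protein of the upper zone of young cartilage, was at 1.82 FPKM in COR, 106 in SAG, 9.03 in PF and 8.08 in GP, and *Cytl1*, a small secreted protein of cartilage, at 2.77 FPKM in COR, 125 in SAG, 1.65 in PF and 7.89 in GP. *Clec3a*, a lectin of cartilage, was at 2.45 FPKM in COR, 113 in SAG, 0.770 in PF and 116 in GP.

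Members of the cartilage list that did not differ, or went the other way, were of several kinds. *Acan* (aggrecan), a main proteoglycan of cartilage, was at 15.6 FPKM in COR, 25.9 in SAG, 23.3 in PF and 59.0 in GP. *Col11a1*, the chain of type XI collagen that bone and tendon cells also make, was at 75.9 FPKM in COR, 159 in SAG, 90.7 in PF and 174 in GP. *Col10a1*, the collagen of hypertrophic cartilage, was at 1.08 FPKM in COR, 0.813 in SAG, 1.44 in PF and 600.5 in GP, so this late marker was near 1 FPKM in every suture and high in GP. *Ihh* and *Wif1* were the 2 members higher in COR. The SAG library thus held high levels of early cartilage matrix genes with hypertrophic *Col10a1* near its level in COR.

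Genes of the brain, its choroid plexus and its coverings differed as well, and SAG was the higher library. The choroid plexus is the epithelium that makes cerebrospinal fluid. Of 20 of its genes compared, 11 were at least 3-fold lower in COR and 1 was higher, against 6.12% and 3.11% of all genes. *Ttr* (transthyretin), the main secreted protein of the choroid plexus, was at 141 FPKM in COR, 5103 in SAG, 465 in PF and 9.74 in GP. *Otx2* (mm9 chromosome 14, 49277354 to 49287319, minus strand), a homeobox factor of choroid plexus, pineal gland and retina, was at 4.09 FPKM in COR, 168 in SAG, 10.3 in PF and 0.269 in GP. *Folr1*, the folate receptor of that epithelium, was at 0.245 FPKM in COR, 33.7 in SAG, 1.08 in PF and 0.114 in GP, *Kcnj13*, a potassium channel, at 0.215 FPKM in COR, 23.3 in SAG, 3.64 in PF and 0.408 in GP, and *Kcne2* at 0.140 FPKM in COR, 15.4 in SAG, 0.0351 in PF and 0.390 in GP. SAG was the highest of the 4 libraries in all 11, against 700 of the 778 genes lower in COR.

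The member higher in COR was *Aqp1*, a water channel that many other cells also make, at 53.8 FPKM in COR, 11.9 in SAG, 24.2 in PF and 41.1 in GP. Among defining markers of the epithelium, *Clic6* was at 0.850 FPKM in COR and 16.7 in SAG, and *Kl* (klotho) was at 0.153 FPKM in COR and 0.958 in SAG. *Enpp2* (autotaxin), which is made in choroid plexus and in mesenchyme, was at 22.2 FPKM in COR, 55.8 in SAG, 7.62 in PF and 83.0 in GP. The summed FPKM of the list was 603 in COR, 6207 in SAG, 1917 in PF and 1774 in GP, most of it in SAG from *Ttr*. In PF and GP most of the sum came from another member, *1500015O10Rik*, at 302 FPKM in COR, 356 in SAG, 1241 in PF and 1444 in GP. With 1 FPKM or more required in both libraries, 11 of these genes were left, of which 4 were lower in COR and 1 was higher.

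The pineal gland lies in the midline of the mouse brain, below the skull, and shares many transcripts with photoreceptors. Of 14 of its genes compared, 7 were at least 3-fold lower in COR and 1 higher, against 6.12% and 3.11% of all genes. *Tph1*, the enzyme that makes serotonin in the pineal, was at 0.763 FPKM in COR, 50.7 in SAG, 4.27 in PF and 0.513 in GP, and *Bsx*, a homeobox factor of the pineal, was at 4.09 FPKM in COR, 115 in SAG, 11.6 in PF and 0.236 in GP. *Crx*, the factor that drives pineal and photoreceptor genes, was at 0.548 FPKM in COR, 18.9 in SAG, 0.0980 in PF and 0.0104 in GP, and *Neurod1* was at 0 FPKM in COR, 10.9 in SAG, 0.0702 in PF and 0.0262 in GP. *Pax6*, a factor of eye and pineal, was at 1.11 FPKM in COR, 41.6 in SAG, 0.541 in PF and 0.0356 in GP. The enzyme *Aanat*, which defines melatonin synthesis, was at 0 in COR and 0.468 FPKM in SAG, and 10 of the 24 genes of the list in the files did not reach 1 FPKM in COR or SAG. Of the 14 genes, 8 were below 1 FPKM in COR. With 1 FPKM or more required in both libraries 5 were left, of which 2 were lower in COR and 0 higher, and their median log2 ratio was 0.10 in place of -1.68. *Neurod4*, among the 15 genes lower in COR that were named by rank, was at 3.16 FPKM in COR, 140.2 in SAG, 3.35 in PF and 0.260 in GP.

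OTX and CRX factors bind TAATCC, and this string was present in 7.21% of the same 27025 promoter windows. Of the 7 pineal genes lower in COR, all had a window and 2 held it, namely *Crx* and *Sag*. It was also in 1 of 8 choroid plexus genes lower in COR with a window (*Otx2*) and in 1 of 13 osteoblast genes higher in COR (*Alpl*). In the cartilage and immediate early genes it was in 0 of 13 and 0 of 14. *Sag* is the gene of S-antigen, or arrestin, and not the suture, and was at 0.310 FPKM in COR and 6.51 in SAG. The *Crx* and *Sag* windows (chr7:15879956-15880055, minus strand, and chr1:87803546-87803645, plus strand, GRCm38.p6) are printed as the only matches in the pineal group. Each match is in capitals and reads GGATTA on the strand shown.
Crx: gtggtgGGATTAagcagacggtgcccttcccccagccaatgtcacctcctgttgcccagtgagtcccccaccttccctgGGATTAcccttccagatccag
Sag: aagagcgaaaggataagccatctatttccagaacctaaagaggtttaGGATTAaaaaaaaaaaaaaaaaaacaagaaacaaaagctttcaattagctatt

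Of 18 glial and neural progenitor genes compared, 7 were at least 3-fold lower in COR and 0 higher, against 6.12% and 3.11% of all genes. *Cspg5* was at 3.48 FPKM in COR and 73.6 in SAG and *Sox2* at 0.367 FPKM in COR and 7.88 in SAG. With 1 FPKM or more required in both libraries 7 of the 18 were left, of which 3 were lower and 0 higher, with a median log2 ratio of -0.23 in place of -1.16. With a pseudocount of 0.1 the counts were 11 lower and 2 higher. *Gfap* and *Aqp4*, defining markers of astrocytes, were at 0.0412 FPKM in COR and 1.01 in SAG and at 0 FPKM in COR and 1.54 in SAG, and *Sox10*, a factor of neural crest and Schwann cells, was at 2.80 FPKM in COR and 0.650 in SAG. Of 10 neuronal genes compared, 5 were lower in COR and 1 higher, against 6.12% and 3.11% of all genes. *Slc17a6*, the vesicular glutamate transporter, was at 1.37 FPKM in COR and 48.6 in SAG, *Snap25* at 0 FPKM in COR and 2.21 in SAG and *Map2* at 0.182 FPKM in COR and 4.43 in SAG. *Tubb3* went the other way, at 10.2 FPKM in COR and 1.28 in SAG. *Elavl3*, *Gad1* and *Gad2* were listed at 0 in both libraries.

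Of 22 meningeal genes compared, 7 were at least 3-fold lower in COR and 0 higher, against 6.12% and 3.11% of all genes. A ratio above 0 was listed for 5 of the 22. Among these were *Crabp2* at 31.9 FPKM in COR and 11.0 in SAG and *Slc47a1* at 6.73 FPKM in COR and 2.47 in SAG. *Nnat* (mm9 chromosome 2, 157385814 to 157388258, plus strand), an imprinted gene of brain, had 1 of the 3 largest log2 ratios among the genes named by rank. It was at 26.6 FPKM in COR, 1545 in SAG, 37.8 in PF and 17.9 in GP. *Ptgds*, a prostaglandin synthase of the arachnoid, was at 5.73 FPKM in COR, 91.3 in SAG, 12.7 in PF and 0.0810 in GP, and *Mgp*, an inhibitor of calcification that mesenchyme and cartilage also make, was at 965 FPKM in COR, 3311 in SAG, 2289 in PF and 1925 in GP. *Foxc1*, a factor needed for the meninges and skull, was at 24.4 FPKM in COR, 47.8 in SAG, 62.4 in PF and 24.0 in GP. *Aldh1a2*, the retinoic acid enzyme of the meninges, was highest in PF, at 1.30 FPKM in COR, 7.09 in SAG, 62.1 in PF and 1.66 in GP.

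Markers of other cell types were checked next. Among 22 leukocyte genes, 3 reached 1 FPKM in COR or SAG and 0 were past 3-fold, with a summed FPKM of 9.79 in COR and 14.8 in SAG. *Cd52*, *Tyrobp* and *Itgam* were listed at 0 in both. For erythroid genes the summed FPKM was 2.26 and 2.33. Endothelial genes summed to 21.4 FPKM in COR and 33.0 in SAG, and *Kdr*, at 0.369 FPKM in COR and 14.9 in SAG, was the single one past 3-fold, while *Pecam1* and *Cdh5* were below 1 FPKM in both. Skeletal muscle genes summed to 10.2 and 12.5 FPKM, with *Myod1* and *Ckm* listed at 0 in both. Of 8 keratinocyte genes compared, 2 were lower in COR and 0 higher, against 6.12% and 3.11% of all genes. Of the 2, *Krt15* was at 3.58 FPKM in COR, 112 in SAG, 9.87 in PF and 0.171 in GP, while *Krt14* was listed at 0 in COR and SAG.

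Where they differed, cartilage, choroid plexus, pineal, neural and meningeal genes were mostly higher in SAG, and osteoblast genes were lower in SAG. With 1 library per suture, whether these lists vary together cannot be seen. Summed cartilage FPKM was 1003 in PF and 6491 in GP, and that of the choroid plexus list was 1917 in PF and 1774 in GP. The choroid plexus sums of PF and GP came mostly from *1500015O10Rik*, at 1241 and 1444 FPKM, whereas *Ttr* was at 465 FPKM in PF and 9.74 in GP. The part of these marker lists in the results was not tested, and with 1 library per suture a difference in the tissue dissected and a difference between sorted cells cannot be told apart.

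**Figure D4:**
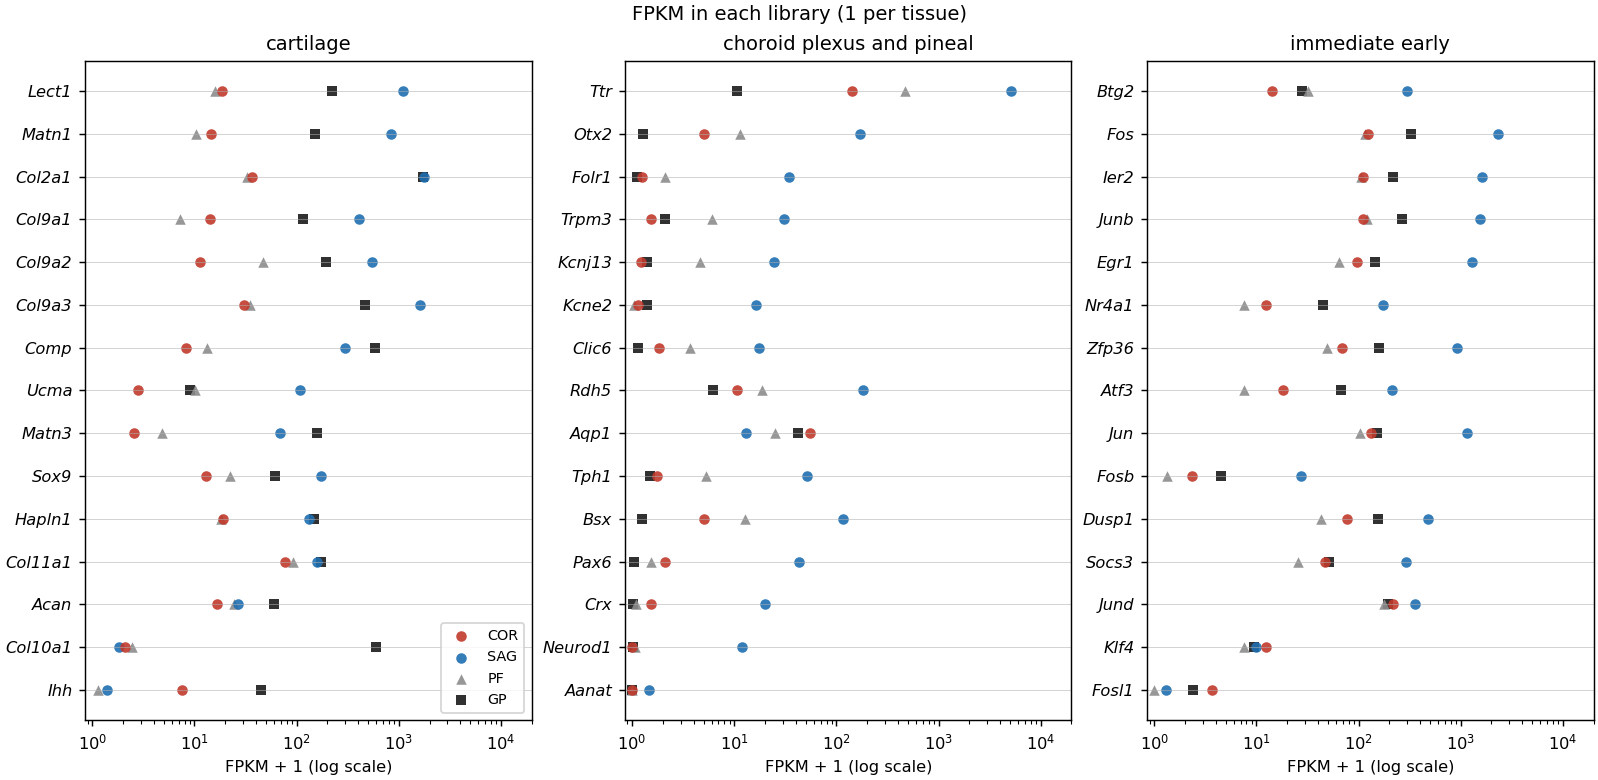
FPKM + 1 on a log axis in the COR, SAG, PF and GP libraries for cartilage genes (left), choroid plexus and pineal genes (centre) and immediate early genes (right), 1 point per library. SAG is the rightmost point for *Lect1*, *Matn1*, *Ttr*, *Otx2*, *Fos* and *Junb*, while *Col10a1* is high in GP alone and *Aqp1*, *Ihh* and *Fosl1* lie further right in COR than in SAG.

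Immediate early genes, which are switched on within minutes of growth factor, mechanical or handling stimuli without new protein synthesis, were lower in COR. All 24 on the list were compared, 17 were at least 3-fold lower in COR and 0 were higher, against 6.12% and 3.11% of all genes. The median log2 ratio of the list was -2.65. Their summed FPKM was 1375 in COR, 12047 in SAG, 1236 in PF and 2548 in GP. SAG was the highest of the 4 libraries in all 17, against 700 of the 778 genes lower in COR.

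The AP-1 factors were among the most abundant. *Fos* was at 124 FPKM in COR, 2298 in SAG, 115 in PF and 327 in GP, *Junb* at 109 FPKM in COR, 1553 in SAG, 119 in PF and 268 in GP and *Jun* at 130.2 FPKM in COR, 1142 in SAG, 103 in PF and 151 in GP. *Fosb* was at 1.32 FPKM in COR, 26.4 in SAG, 0.340 in PF and 3.50 in GP, and the delayed member *Fosl1* was at 2.64 FPKM in COR and 0.297 in SAG. *Egr1*, a zinc finger factor of the same response, was at 94.98 FPKM in COR, 1279 in SAG, 63.5 in PF and 145 in GP, and *Ier2* was at 109 FPKM in COR, 1610.3 in SAG, 105 in PF and 219 in GP. *Btg2*, an antiproliferative gene, had the largest ratio of the list, at 13.3 FPKM in COR, 299 in SAG, 30.8 in PF and 26.9 in GP. *Zfp36*, which shortens the life of AU-rich mRNAs, was at 68.4 FPKM in COR, 914 in SAG, 47.8 in PF and 157 in GP, and *Dusp1*, the phosphatase that turns off MAP kinases, was at 75.6 FPKM in COR, 483 in SAG, 41.7 in PF and 155 in GP. *Jund*, a member with steadier expression, was at 217 FPKM in COR and 355 in SAG, and *Klf4* was at 11.5 FPKM in COR and 9.03 in SAG. COR was near PF for most of these, and SAG was apart from the other 3 libraries.

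The cAMP response element TGACGTCA, which reads the same on both strands, was present in 1.77% of the 27025 windows. Of the 17 immediate early genes lower in COR, 14 had a window and 2 held it, *Btg2* and *Dusp1*. The pineal genes lower in COR had the same share, 1 of 7 (*Pax6*), and the osteoblast, choroid plexus and cartilage genes had 0. The *Btg2* and *Dusp1* windows (chr1:134079268-134079367, minus strand, and chr17:26508562-26508661, minus strand, GRCm38.p6) are printed with the element in capitals.
Btg2: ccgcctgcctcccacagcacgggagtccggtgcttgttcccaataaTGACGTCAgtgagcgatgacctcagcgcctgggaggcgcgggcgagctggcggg
Dusp1: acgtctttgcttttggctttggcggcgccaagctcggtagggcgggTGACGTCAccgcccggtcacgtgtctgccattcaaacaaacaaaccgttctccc

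Heat shock genes are another set that responds to handling and stress. Of 15 compared, 2 were at least 3-fold lower in COR and 0 higher, against 6.12% and 3.11% of all genes. *Dnajb1* was at 40.1 FPKM in COR, 451 in SAG, 60.9 in PF and 69.0 in GP and *Hspb1* at 9.16 FPKM in COR, 41.4 in SAG, 25.9 in PF and 42.1 in GP. *Hspa1a* and *Hspa1b*, inducible HSP70 genes that are near-identical copies of each other, were at 38.2 FPKM in COR and 101 in SAG and at 40.5 FPKM in COR and 109 in SAG, and the endoplasmic reticulum chaperone *Hspa5* was at 659 FPKM in COR and 707 in SAG. In the hypoxia and glycolysis list, 4 of 24 were lower in COR and 1 higher, against the same shares of all genes. The glucose transporter *Slc2a1* was at 13.6 FPKM in COR, 107 in SAG, 4.28 in PF and 31.6 in GP, *Bnip3* at 21.6 FPKM in COR and 71.6 in SAG and *Aldoc* at 1.09 FPKM in COR and 15.8 in SAG. *Pgk1*, *Ldha* and *Vegfa* were at 38.1 FPKM in COR and 53.2 in SAG, at 863 FPKM in COR and 1097 in SAG and at 16.5 FPKM in COR and 27.7 in SAG.

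Of 30 S phase genes and 30 mitosis genes, 0 were past 3-fold in either direction. The S phase genes had a median log2 ratio of -0.32, with 25 of 30 below 0, and *Pcna*, the clamp of DNA polymerase, was at 33.99 FPKM in COR and 55.2 in SAG. The mitosis genes had a median of 0.08, with *Mki67* at 3.91 FPKM in COR, 3.40 in SAG, 0.384 in PF and 3.29 in GP and *Top2a* at 5.60 FPKM in COR, 12.2 in SAG, 4.07 in PF and 10.4 in GP. PF was lower than COR and SAG in summed mitosis FPKM, at 168, against 530.1 in COR and 461 in SAG.

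**Figure D5:**
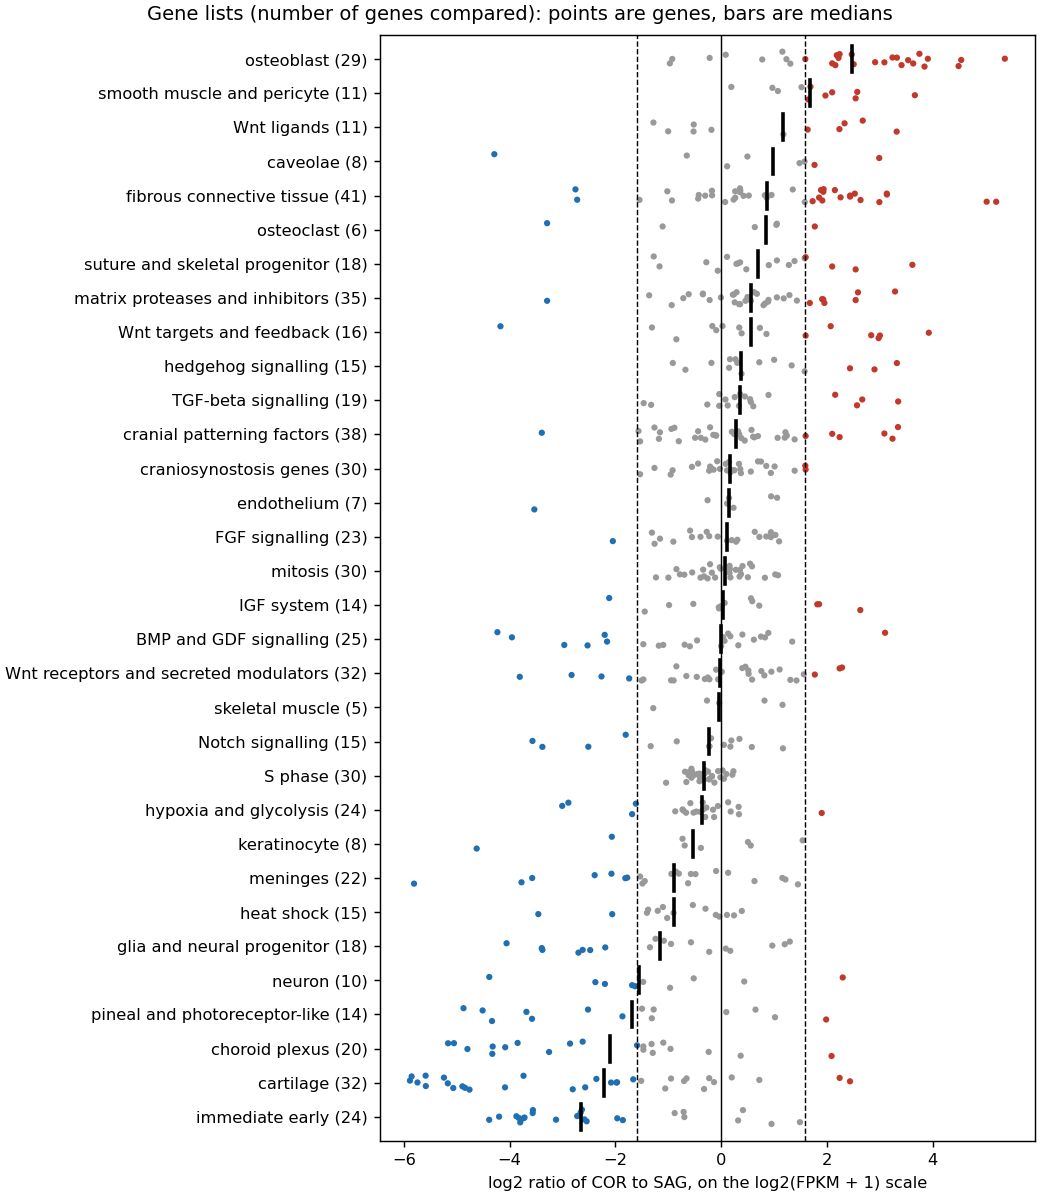
Log2 ratios of COR to SAG on the log2(FPKM + 1) scale for the genes of each list with 5 or more genes compared, ordered by the median (black bar), with red points at least 3-fold higher in COR, blue points at least 3-fold lower and dashed lines at 3-fold. Medians run from -2.65 for immediate early genes to 2.47 for osteoblast genes.

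The 15 genes with the largest ratio in each direction, leaving out short RNA genes and genes that stayed under 5 FPKM in COR and SAG, add genes outside the lists described above. Higher in COR were *Duoxa1*, the maturation factor of a dual oxidase, at 39.2 FPKM in COR, 0.405 in SAG, 0.243 in PF and 2.73 in GP, and *Insc*, a protein of spindle orientation, at 68.9 FPKM in COR, 2.74 in SAG, 8.66 in PF and 16.1 in GP. *Lrrc15*, a leucine-rich membrane protein of activated stromal cells, was at 117 FPKM in COR, 5.04 in SAG, 11.5 in PF and 14.8 in GP, and *Kcnn4*, a calcium-activated potassium channel, was at 45.9 FPKM in COR, 1.61 in SAG, 0.606 in PF and 9.36 in GP. *Crip1*, a small LIM protein, was at 3089 FPKM in COR, 184 in SAG, 1276 in PF and 1902 in GP, and *S100a4*, a calcium-binding protein of motile stromal cells, was at 276 FPKM in COR, 18.04 in SAG, 32.5 in PF and 219 in GP. *Col13a1*, a transmembrane collagen, was at 43.1 FPKM in COR, 1.75 in SAG, 9.90 in PF and 8.60 in GP. COR was the highest of the 4 libraries in each of these 7.

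Among the lower ones outside those lists was *Esm1*, a secreted proteoglycan of endothelial tip cells and other cells, at 7.20 FPKM in COR, 346 in SAG, 22.7 in PF and 5.84 in GP. *Dynlrb2*, a dynein light chain of motile cilia, was at 0.322 FPKM in COR, 53.5 in SAG, 1.75 in PF and 0.133 in GP. The 15 genes in this direction otherwise comprised cartilage genes, the choroid plexus genes *Ttr* and *Otx2*, *Nnat*, *Neurod4* and *Clec3a*.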

How the data were processed

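Sorted CD51+;CD200+ cells of COR, SAG, PF and GP each gave 1 bulk RNA-seq library. The authors amplified the cDNA with an ultra-low-input method, mapped paired-end reads to mouse mm9 with STAR 2.5.1b and ran Cuffdiff of Cufflinks 2.2.1 with the iGenomes gene model. In the deposited files, FPKM is listed by gene symbol, and how Cuffdiff scaled the libraries and their depth are not given in the sources used here. Groups came from the sample titles.

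Here COR and SAG were compared as log2 ratios of FPKM + 1, over genes that reached FPKM of 1 in either library, without the 4 genes listed at 0 in COR, and genes past 3-fold were counted over all genes and over 36 lists. With 1 library per suture no test was made. The genes named were members of these lists and the 15 largest ratios in each direction with FPKM of 5 or more. The comparison and the lists were chosen with earlier results of these data known, and 4 more lists were added after the values were seen. Alternatives were a pseudocount of 0.1, scaling to the median ratio, quantile normalization, other filters and a loess correction for GC content (span 0.3). GC content was taken from each gene's longest coding transcript (GENCODE, mm9), and the same annotation gave the coordinates. It covered 90.6% of the genes compared. Promoter windows came from RefSeq (GRCm38.p6). The steps were tested on simulated data, and Python 3.11.15, numpy 2.4.6, pandas 2.3.3, statsmodels 0.14.6 and matplotlib 3.10.9 were used.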

Additional observations from a re-analysis of the deposited data

How the results depend on the processing

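The counts depended mainly on how low values were handled. With a pseudocount of 0.1, 2005 genes were past 3-fold, 616 higher and 1389 lower in COR. With FPKM of 1 or more required in both libraries, 609 were past it, 323 of them lower in COR, and the share higher in COR among calls moved from 33.7% to 47.0%. Under that filter 5 choroid plexus genes were past 3-fold in place of 12, and 1 Wnt ligand in place of 5, since most of these genes were below 1 FPKM in the other library, and the list medians turned sign for Wnt ligands (1.18 to -0.18) and pineal genes (-1.68 to 0.10). Single genes were followed through the alternatives for part of the lists and for the 15 largest ratios in each direction. Members of the other lists, such as the hedgehog, TGF-beta, IGF and Wnt receptor lists, were not followed. Of the genes followed that were past 3-fold, 0 reversed, a result that was nearly fixed beforehand. Other filters leave the ratio of a gene as it is, and another pseudocount cannot turn its sign. Scaling used a factor of 0.954, too small to turn a ratio past 3-fold. Of the 159 genes followed that were past 3-fold, 11 fell short of it under scaling to the median ratio, quantile normalization or correction for GC content. Among them were *Runx2* (1.53 and 1.52 under the first and the last) and *Twist1* (from 1.34 to 1.53 under all 3). *Sox5* (-1.55 with quantile normalization), *Eln* (1.41 with the GC correction) and *Wnt6* (1.34 with the GC correction) were others. Named genes of the lists not followed may also fall short, *Cd34* with its log2 ratio of 1.60 being close to the threshold. Without an expression filter the 3-fold counts could not change, since no gene under 1 FPKM in both libraries reaches 3-fold on this scale. No paired analysis was possible because there was 1 library per suture, and for the same reason no replicate could be left out. FPKM carries no counts, so counting error is unknown, and low genes are the least certain.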

Other observations

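A further 4 lists were put together after the values had been seen, so their counts describe these libraries and support nothing. Genes of motile cilia, the beating cilia of ependyma, choroid plexus and airway, were lower in COR. Of 26 compared, 17 were at least 3-fold lower and 1 was higher, with a median log2 ratio of -1.95. In all 17, SAG was the highest of the 4 libraries, against 700 of the 778 genes lower in COR. *Foxj1*, the factor that directs motile ciliogenesis, was at 0.0918 FPKM in COR, 3.99 in SAG, 0.418 in PF and 0.0229 in GP, *Fam183b* at 0.143 FPKM in COR, 30.9 in SAG, 0 in PF and 0 in GP and *Tekt1*, a tektin of the axoneme, at 0.237 FPKM in COR, 11.1 in SAG, 0.0824 in PF and 0.0408 in GP. *Tppp3*, a tubulin-binding protein also found in tendon sheath, was the exception, at 429 FPKM in COR, 69.0 in SAG, 118 in PF and 77.7 in GP.

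The collagen family went in both directions, by chain type. Of 31 collagen genes compared by symbol, 10 were at least 3-fold higher in COR and 7 were lower. Those higher included the chains of types V and VI, *Col12a1*, *Col13a1*, *Col22a1* and *Col24a1*, the last at 8.37 FPKM in COR and 1.01 in SAG. *Col5a3* was at 9.91 FPKM in COR and 0.980 in SAG. Those lower were the type II and type IX chains with *Col8a1*, a short-chain collagen, at 39.4 FPKM in COR and 252 in SAG, *Col23a1* at 2.04 FPKM in COR and 28.9 in SAG and *Col4a5* at 0.370 FPKM in COR and 4.06 in SAG. The basement membrane chains *Col4a1* and *Col4a2* were at 23.9 FPKM in COR and 11.7 in SAG and at 22.9 FPKM in COR and 12.8 in SAG.

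Genes for collagen folding and crosslinking had 5 of 21 at least 3-fold higher in COR and 0 lower, and 18 of 21 had a ratio above 0. *Creb3l1*, a transcription factor that raises secretory capacity in osteoblasts, was at 184 FPKM in COR, 28.9 in SAG, 166 in PF and 107 in GP. *Serpinh1* (HSP47), the chaperone of procollagen, was at 800.0 FPKM in COR, 215 in SAG, 389 in PF and 419.6 in GP, and *Fkbp10*, a prolyl isomerase whose human counterpart is mutated in brittle bone disease, was at 542 FPKM in COR, 183 in SAG, 409 in PF and 371 in GP. *Sec24d*, of the coat that exports procollagen, was at 114 FPKM in COR and 34.9 in SAG. These genes were measured in COR while *Col1a1*, *Col1a2* and *Col3a1*, whose products they process, are listed at 0 there.

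Among 12 integrin subunits compared, *Itgb3* and *Itgb5*, partners of the CD51 chain, were at least 3-fold higher in COR, at 5.86 FPKM in COR and 1.01 in SAG and at 324 FPKM in COR and 99.1 in SAG. *Itga7*, a laminin receptor, was lower, at 1.34 FPKM in COR and 12.7 in SAG. *Itgb1*, the common partner of many chains, was at 264 FPKM in COR and 146 in SAG, and *Itga11*, a collagen receptor of mesenchyme, at 42.4 FPKM in COR and 14.2 in SAG.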
